A study of Homo sapiens with 18 samples.

Results

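The genes described here encode the parts of the hemidesmosome and of its main ligand, laminin-332, and they were chosen by symbol: LAMA3, LAMB3, ITGA6, ITGB4, ITGA3, COL17A1, CD151, DST and PLEC. All 9 had values, among 35933 genes with values in the table.

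RNA was sequenced from 18 libraries of 3 related human breast epithelial lines, with 3 replicates (a, b and c) in each of 6 groups. MCF10A is a spontaneously immortalized, non-tumorigenic line, MCF10AT1 is MCF10A with a mutated HRAS added, and MCF10CA1h arose from MCF10AT1 through passages as mouse xenografts and forms tumors. In each line, cells were transfected with a construct carrying Cas9, mCherry and either a control guide RNA (genotype label control negative CRISPR) or a guide against exon 1 of METTL3 (genotype label METTL3 CRISPR knockdown), sorted for mCherry and grown from single cells. All 6 groups were kept in the same medium with horse serum, insulin, hydrocortisone, cholera toxin and epidermal growth factor. METTL3 is the catalytic subunit of the complex that writes N6-methyladenosine into mRNA. The 3 replicates of a group came from 1 CRISPR line, so every p-value below measures the spread within that line, and a difference between groups cannot be told apart from a difference between the lines grown from single cells.

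A hemidesmosome fastens a basal epithelial cell to its basement membrane. Laminin-332, whose α3 and β3 chains are made by LAMA3 and LAMB3, lies outside the cell and is bound by the integrin α6β4 (ITGA6 and ITGB4) and by the integrin α3β1, whose α chain is ITGA3. Collagen XVII (COL17A1) spans the membrane beside α6β4, the tetraspanin CD151 associates with both integrins, and the plakins BPAG1e (a product of DST) and plectin (PLEC) tie the complex to keratin filaments. In the breast, these proteins are typical of myoepithelial and other basal cells, and inherited loss of several of them causes blistering of the skin.

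The promoter sequences of the laminin chains and of COL17A1 are shown because the laminin chains are the ligand of the complex and COL17A1 had the largest change of the 9 genes. They come from RefSeq (GRCh38.p14), which held promoters of 5 of the 9 genes, 10 in all, and no entry for ITGB4, ITGA3, PLEC or CD151. Each sequence is the 250 bases before a transcription start, written in the direction of the gene, with capitals for every match to TGANTCA, the core of AP-1 binding sites, or to CAGGTG on either strand, the E-box bound by SNAI and ZEB factors. The LAMA3 sequence lies at chr18:23872770-23873019 on the plus strand, the LAMB3 sequence, upstream of 1 of its 3 starts, at chr1:209651375-209651624 on the minus strand, and the COL17A1 sequence at chr10:104085881-104086130 on the minus strand.
LAMA3: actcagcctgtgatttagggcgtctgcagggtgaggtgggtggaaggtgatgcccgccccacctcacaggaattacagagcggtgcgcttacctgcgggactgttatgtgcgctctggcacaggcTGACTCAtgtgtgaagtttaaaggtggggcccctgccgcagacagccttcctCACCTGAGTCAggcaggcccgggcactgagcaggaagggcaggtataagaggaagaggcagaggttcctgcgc
LAMB3: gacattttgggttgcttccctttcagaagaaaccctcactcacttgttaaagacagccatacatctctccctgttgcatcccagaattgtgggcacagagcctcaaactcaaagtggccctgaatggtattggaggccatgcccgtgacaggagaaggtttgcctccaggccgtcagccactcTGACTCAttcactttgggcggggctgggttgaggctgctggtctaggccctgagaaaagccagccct
COL17A1: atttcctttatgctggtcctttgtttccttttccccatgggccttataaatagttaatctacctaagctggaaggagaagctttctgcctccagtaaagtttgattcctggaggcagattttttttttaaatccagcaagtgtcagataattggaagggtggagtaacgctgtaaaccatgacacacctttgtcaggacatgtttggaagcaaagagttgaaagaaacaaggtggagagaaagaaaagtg

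The LAMA3 sequence held TGACTCA from base -125 to -119 and TGAGTCA from base -69 to -63, counted back from the start, and CACCTG from -73 to -68, which overlaps the second of the AP-1 cores. The LAMB3 sequence held TGACTCA from -67 to -61, and the COL17A1 sequence held no match to either motif. Of the LAMB3 starts, only the printed one had a match to TGANTCA. Elsewhere in the table, ITGA6 had CACCTG from -136 to -131 and from -46 to -41 before 1 of its 2 starts, LAMB3 had CAGGTG from -218 to -213 before its farthest upstream start, and DST had TGAGTCA from base 26 to 32 after 1 of its 3 starts. Of all 35116 promoters of 300 bases in the table (250 before and 50 after the start), 7.71% held TGANTCA and 20.6% held CAGGTG on either strand. These matches are letters in a window, and binding was not measured.

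METTL3 (chromosome 14, 21498133 to 21511342, minus strand, hg38) was examined first as the targeted gene. Values throughout are normalized counts, on which the sums per library lay between 21347352 and 31681834. METTL3 read 752, 686 and 459 in the MCF10A control libraries and 939, 981 and 510 in those labelled METTL3 CRISPR, so it was not lower there. It read 968, 1016 and 805 against 816, 752 and 902 in MCF10AT1, and 1022, 1102 and 1280 against 825, 745 and 843 in MCF10CA1h. Only in MCF10CA1h did the groups not overlap (70.8% of control, log2 fold change -0.49, adjusted p = 0.0234), and the call was lost without METTL3 replicate b or control replicate c, with the highest adjusted p at 0.0906. The exact two-sided permutation test gave p = 0.3, 0.3 and 0.1 for the 3 lines, where 0.1 is the smallest that 3 against 3 libraries allow. The authors report less METTL3 protein by Western blot in each line, with only a moderate loss in MCF10CA1h, and a lesser decrease of its RNA by RT-PCR. With an antibody-based kit they report significantly less N6-methyladenosine in total RNA of the MCF10AT1 and MCF10CA1h knockdowns. In MCF10A they describe that decrease as not significant. Protein was not measured in these libraries, and an edit in exon 1 need not lower the RNA. Because the RNA in MCF10A was not lower (log2 fold change 0.33, adjusted p = 0.618, with overlap), the groups are called METTL3-labelled here.

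Epithelial identity was checked on 10 epithelial and 11 mesenchymal markers. The summed epithelial markers lay between 132192 and 139774 in the MCF10A control and 209926 and 221756 in the METTL3-labelled libraries, and between 275873 and 298846 and 347631 and 370354 in MCF10CA1h, where GRHL2 and RAB25 averaged under 10 in both groups. The basal keratin KRT5 made up most of both sums, at 188573 ± 5822 against 101080 ± 2487 (SD, n = 3) in MCF10A and 275662 ± 14943 against 214476 ± 1037 in MCF10CA1h. In MCF10A 1 of the 10 markers tested was called higher, KRT5, and in MCF10CA1h 2 of 8, KRT5 and KRT14, with none lower in either line. KRT14 went the other way in MCF10A, at 811 ± 457 against 2433 ± 232 without overlap (log2 -1.76 ± 0.40, SE, adjusted p = 0.0608). With the replicate letter as a block in the fit it was called lower there (adjusted p = 0.0129). The MCF10AT1 METTL3-labelled libraries stood apart: the epithelial sum was 24661 to 54060 against 86415 to 131937 in their control, with 8 of 10 markers lower, and ESRP1 and RAB25 averaged under 10. Their mesenchymal sum was 118202 to 206677 against 3611 to 5044, and 5 of the 10 mesenchymal markers tested were higher and none lower. CDH1, the adherens junction cadherin, averaged 40.9 ± 34.7 against 3906 ± 2051 there, and VIM, the mesenchymal intermediate filament, 65860 ± 7144 against 3922 ± 803. KRT5 and KRT14 stand both in the epithelial list and in the list of adhesion genes described further on. The mesenchymal sums were 5733 to 8482 against 9204 to 16268 in MCF10A, and 39685 to 51124 against 27519 to 32390 in MCF10CA1h. VIM made up most of them, at 6430 ± 1379 against 12505 ± 3739 in MCF10A and 31171 ± 4064 against 26533 ± 2748 in MCF10CA1h. FN1 averaged 11792 ± 2481 against 3089 ± 444 in MCF10CA1h. In MCF10A none of the 7 mesenchymal markers tested was called, and in MCF10CA1h 1 of 10 was higher and 1 lower. Of the endothelial markers, CDH5 and VWF averaged under 10 in all 6 groups, but PECAM1 averaged 43.4 to 517 over the groups, 458 in METTL3-labelled and 84.0 in control libraries of MCF10A, and the 5 markers summed to 46.1 to 867 over all libraries. Of the leukocyte markers, PTPRC and CD3E averaged under 10 in all groups, but CD68 averaged 185 to 1140, 313 in METTL3-labelled and 1140 in control libraries of MCF10A, and the 4 markers with values summed to 149 to 2007. The 5 luminal markers summed to 368 to 993. What part the cells these lists mark have in the results below was not tested. In bulk RNA, fewer cells of a type and less RNA per cell cannot be told apart.

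In MCF10A, 1 of the 9 genes was called at an adjusted p under 0.05 between METTL3-labelled and control libraries, DST, which was higher. Over all 15416 genes tested, 2.65% were called, 1.16% higher and 1.49% lower. The groups did not overlap for 7 of the 9 genes, beside 23.9% of all genes, and 7 had an unadjusted p under 0.05, beside 18.4%. With the replicate letter as a block, 5 were called, beside 7.60% of all genes, 2.84% higher and 4.76% lower. DST was higher and LAMA3, LAMB3, ITGB4 and ITGA3 were lower. The block was used since libraries of the same letter deviated together in MCF10A and MCF10AT1, although some controls of different lines did so as closely as in MCF10A. The median log2 fold change of the 9 was -0.53, and that of all genes tested was -0.003.

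In MCF10AT1, 4 of the 9 were called, ITGA3 and CD151 higher and COL17A1 and LAMA3 lower, beside 13.0% of all 16050 genes, 7.07% higher and 5.96% lower. The groups did not overlap for 6 of the 9, beside 32.8% of all genes. With the block, 7 were called, 3 higher and 4 lower, beside 24.5% of all genes, 13.0% higher and 11.6% lower. The median of the 9 was 0.15 on the log2 scale, beside 0.02 for all genes, since members moved in both directions. The marker sums given above differed between the same libraries, and their part in these changes was not tested.

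In MCF10CA1h, 7 of the 9 were called, all higher in the METTL3-labelled libraries, and ITGA6 and DST were not. Over all 15127 genes, 12.8% were called, 7.91% higher and 4.85% lower. The groups did not overlap for the same 7 genes, beside 32.7% of all genes, and the median of the 9 was 0.59, beside -0.02 for all genes. When each library was scaled to an equal sum, the called genes split into 1043 higher and 1035 lower in place of 1196 and 733, and the same 7 of the 9 were called higher. In a joint fit of the 18 libraries, where all 6 groups share 1 estimate of the spread, 2 of the 9 were called, LAMA3 and LAMB3, beside 1.56% of all genes.

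**Figure D1:**
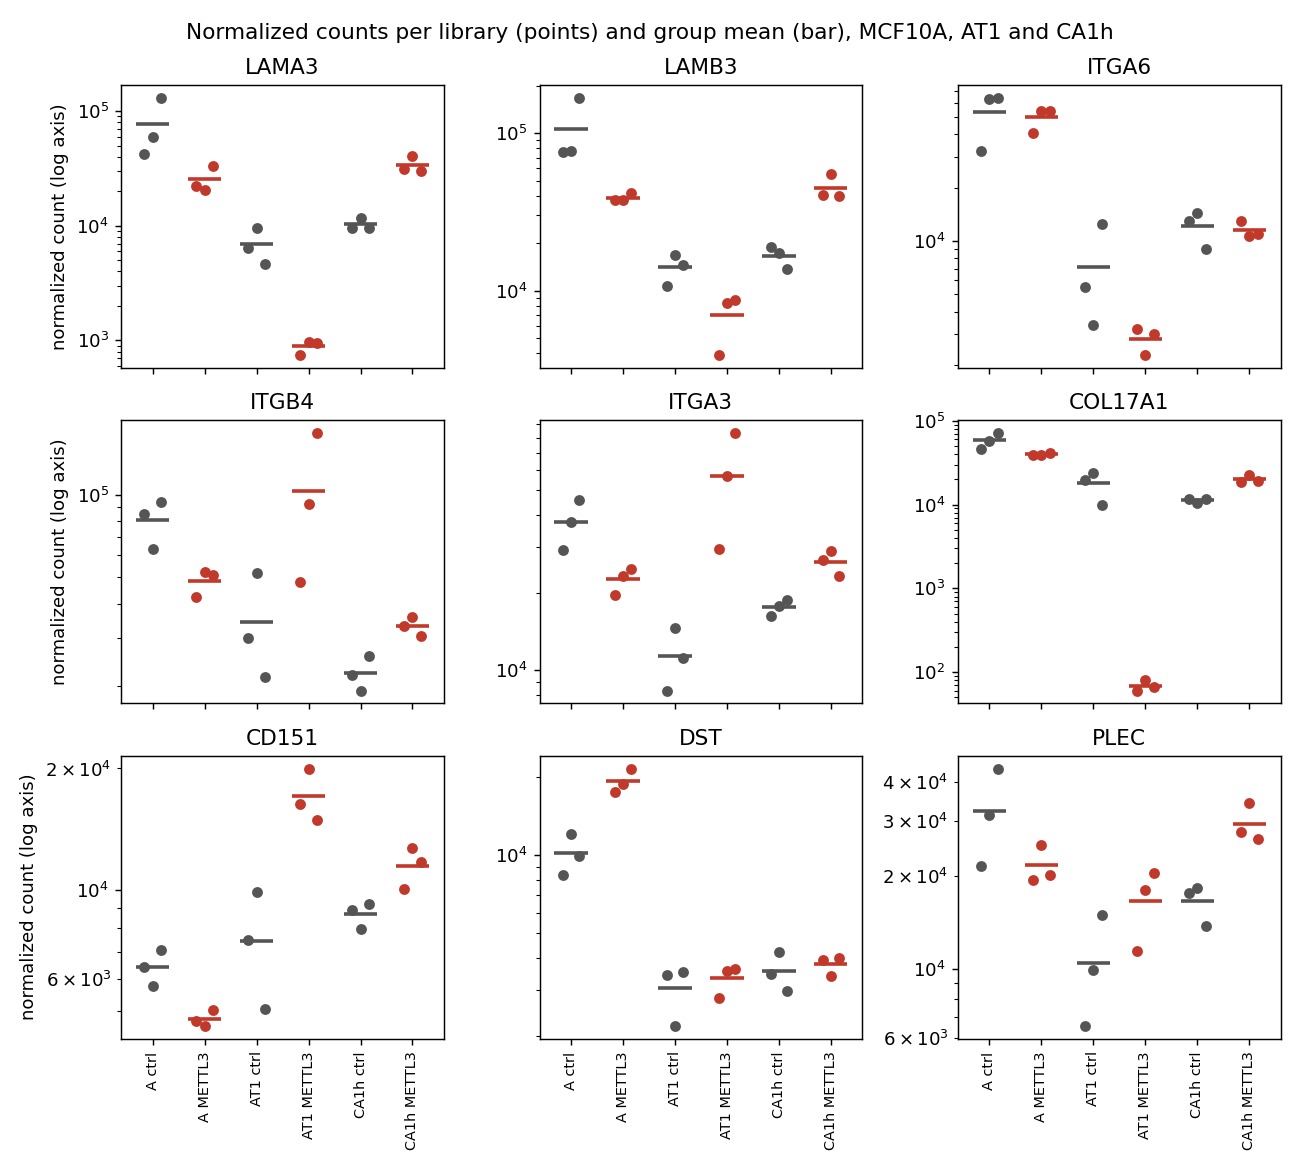
Normalized counts on a log axis (a separate range in each panel) of the 9 genes, 1 point per library and a bar at the group mean, grey for control and red for METTL3-labelled libraries of MCF10A (A), MCF10AT1 (AT1) and MCF10CA1h (CA1h). COL17A1 sits at 60.4 to 80.4 in the MCF10AT1 METTL3-labelled libraries and at 10015 or more in every other library.

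Both laminin chains rose in MCF10CA1h. In MCF10A and MCF10AT1 their values lay below control without overlap, but of these 4 differences LAMA3 in MCF10AT1 was the 1 that passed the test. LAMA3, the α3 chain (chromosome 18, 23689453 to 23956222), read 42684, 59282 and 130911 in MCF10A control replicates a, b and c and 22445, 20408 and 33418 in the METTL3-labelled ones. The groups did not overlap, and control replicate c was far above the other two. The mean was 32.7% of control (log2 fold change -1.48 ± 0.40, SE), at an adjusted p of 0.0952 that was 0.00633 with the block. With 1 library left out the log2 fold change ranged from -1.83 to -1.02 and the adjusted p from 0.0232 to 0.287, and the gene was called in 1 of 6 fits, the one without control replicate a. Without control replicate c it was -1.02 (adjusted p = 0.145).

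In MCF10AT1, LAMA3 read 6400, 9630 and 4614 in control and 744, 961 and 953 in METTL3-labelled libraries. It fell to 12.9% of control (log2 -2.90 ± 0.32, adjusted p = 0.000814), and it was called in each of the 6 fits that left out a library. In MCF10CA1h it read 9561, 11665 and 9604 against 31081, 40314 and 29932. It rose 3.29-fold there (log2 1.71 ± 0.13, adjusted p = 5.3e-05) and was also called in the joint fit (adjusted p = 0.015). The single start printed above is an internal one for a gene that makes a long and a short α3 chain, and the gene-level value does not separate them.

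LAMB3, the β3 chain (chromosome 1, 209614870 to 209652425), read 75572, 76644 and 167626 in MCF10A control and 37436, 37843 and 41625 in METTL3-labelled libraries. The 3 METTL3-labelled libraries were close together and all below the control, at 36.6% of its mean (log2 -1.35 ± 0.31), with an adjusted p of 0.0649 that was 0.0111 with the block. With 1 library left out it ranged from -1.54 to -0.97, with adjusted p up to 0.216, and was called in 1 of 6 fits, without control replicate a (0.0278). In MCF10AT1 it read 10632, 16915 and 14544 against 3891, 8402 and 8739, 49.97% of control and without overlap (log2 -1.06 ± 0.38, adjusted p = 0.108, with the block 0.0113). It rose in MCF10CA1h from 19011, 17359 and 13743 to 40318, 54799 and 39750 (2.69-fold, log2 1.43 ± 0.15, adjusted p = 0.0003), with an adjusted p of 0.0348 in the joint fit and 0.0536 without a filter on low values.

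The LAMA3 and LAMB3 values had the same sign as each other in each line. The balance between the chains was described as the ratio of their normalized counts within each library, which can be compared across groups but not read as a ratio of molecules. LAMA3 to LAMB3 was 0.706 ± 0.123 (SD, n = 3) in MCF10A control and 0.647 ± 0.138 in METTL3-labelled libraries, and 0.625 ± 0.106 and 0.753 ± 0.0176 in MCF10CA1h. In MCF10AT1 it was 0.317 to 0.602 in control and 0.109 to 0.191 in METTL3-labelled libraries, without overlap, so LAMA3 was lower there relative to LAMB3. These ratios were not tested.

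**Figure D2:**
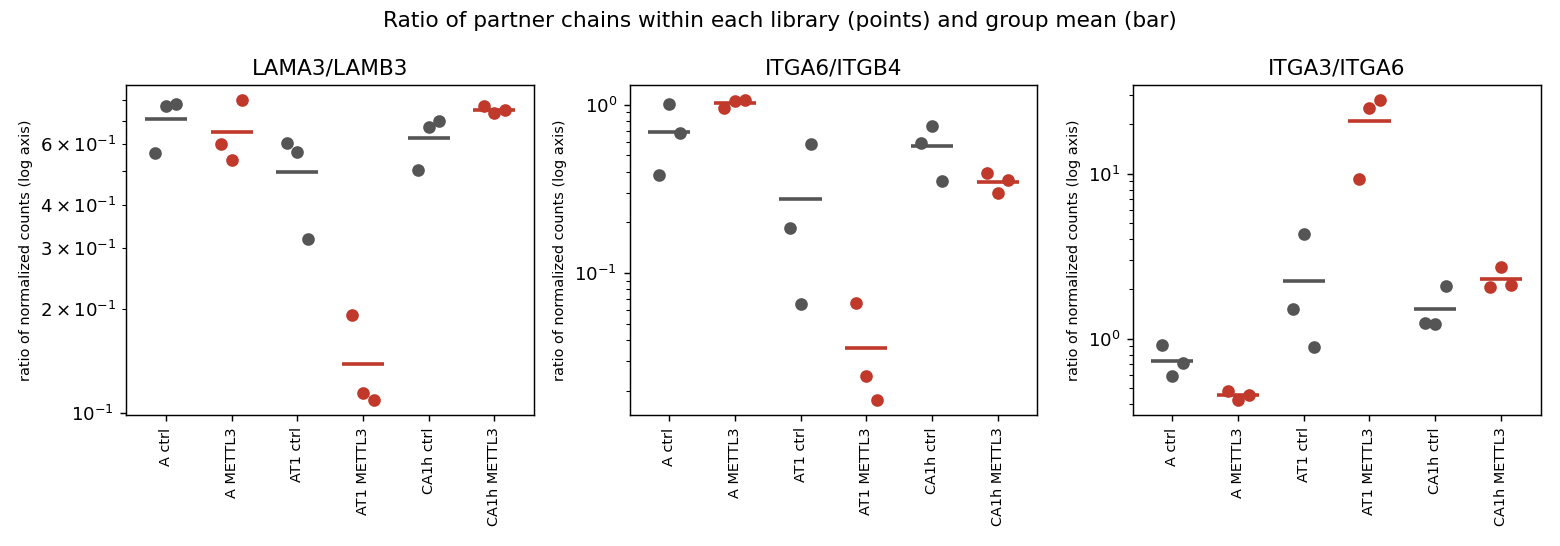
Ratios of normalized counts within each library (log axis, a separate range in each panel) for LAMA3 to LAMB3, ITGA6 to ITGB4 and ITGA3 to ITGA6, with 1 point per library and a bar at the group mean. In MCF10AT1 the ITGA3 to ITGA6 ratio is 0.891 to 4.31 in control libraries and 9.30 to 28.0 in METTL3-labelled libraries.

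The laminin receptors did not move as 1 unit. ITGA6, the α6 chain (chromosome 2, 172427354 to 172506459), read 32282, 63560 and 64402 in MCF10A control and 40578, 54518 and 54579 in METTL3-labelled libraries, and 13041, 14479 and 9016 against 13070, 10658 and 10902 in MCF10CA1h. The groups overlapped in both lines, with log2 fold changes of -0.04 ± 0.29 (adjusted p = 0.961) and -0.05 ± 0.16 (adjusted p = 0.857). In MCF10AT1 it read 5539, 3381 and 12499 against 3175, 2271 and 2973, 39.3% of control and just without overlap, where control replicate c was far above the other controls. The log2 fold change was -1.15 ± 0.46 (adjusted p = 0.145, with the block 0.0162), and with 1 library left out it ranged from -1.58 to -0.64. It was called in 1 of these 6 fits, without control replicate b (adjusted p = 0.0363), and the highest adjusted p was 0.392. The value of -0.64 is the one without control replicate c (adjusted p = 0.241).

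ITGB4, the β4 chain that pairs only with α6 (chromosome 17, 75721328 to 75757818), read 84787, 63301 and 94501 in MCF10A control and 42466, 52013 and 51121 in METTL3-labelled libraries. The groups did not overlap (60.0% of control, log2 -0.72 ± 0.21, adjusted p = 0.116, with the block 0.0468). In MCF10AT1 it read 29884, 51829 and 21514 against 48088, 92425 and 167977. The METTL3-labelled libraries there differed several-fold from each other and the lowest lay below the highest control, with a log2 fold change of 1.495 ± 0.53 (adjusted p = 0.104, with the block 0.0252, joint fit 0.00439). In MCF10CA1h it rose from 21922, 19258 and 25676 to 33212, 35858 and 30444 (1.49-fold, log2 0.58 ± 0.12, adjusted p = 0.01), a call kept in each of 6 fits without 1 library and lost in the joint fit (0.695).

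ITGA3, the α3 integrin chain (chromosome 17, 50055968 to 50090481), read 29372, 37518 and 45753 in MCF10A control and 19675, 23264 and 24749 in METTL3-labelled libraries, without overlap (60.1% of control, log2 -0.72 ± 0.20, adjusted p = 0.109, with the block 0.0188). With 1 library left out it ranged from -0.88 to -0.56, with adjusted p up to 0.361, and was called in 1 of 6 fits, without control replicate a (0.029). In MCF10AT1 it rose from 8346, 14571 and 11137 to 29540, 57004 and 83253, all METTL3-labelled libraries above all controls (4.99-fold, log2 2.23 ± 0.43, adjusted p = 0.011). That call was lost without METTL3 replicate b or control replicate a (highest adjusted p 0.0646). The MCF10CA1h libraries rose from 16176, 17704 and 18738 to 26908, 29124 and 23210 (1.51-fold, log2 0.59 ± 0.11, adjusted p = 0.00576; joint fit 0.539).

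Within libraries, the ITGA6 to ITGB4 ratio in MCF10AT1 was 0.0652 to 0.581 in control and 0.0177 to 0.0660 in METTL3-labelled libraries, which overlapped only at their ends. The ratio of the α chains, ITGA3 to ITGA6, averaged 2.24 ± 1.82 in MCF10AT1 control and 20.8 ± 10.1 (SD, n = 3) in METTL3-labelled libraries, without overlap. In MCF10A it was 0.590 to 0.910 against 0.427 to 0.485, the opposite direction and without overlap, and in MCF10CA1h 1.22 to 2.08 against 2.06 to 2.73, with overlap.

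COL17A1, collagen XVII (chromosome 10, 104031286 to 104085880), had the largest log2 fold change of the 9, in MCF10AT1, while LAMA3 had the largest in MCF10A and in MCF10CA1h. In MCF10AT1, COL17A1 read 19824, 24164 and 10015 in control replicates a, b and c and 60.4, 80.4 and 66.7 in the METTL3-labelled ones. It fell to 0.384% of control (log2 -7.92 ± 0.37, adjusted p = 2.25e-05), and leaving out any library kept the log2 fold change between -8.29 and -7.66 and the call. In MCF10A it read 46750, 57608 and 71280 against 39497, 39501 and 40914, without overlap (68.3% of control, log2 -0.53 ± 0.19, adjusted p = 0.2, with the block 0.0808). In MCF10CA1h it rose from 11549, 10526 and 11780 to 18586, 22293 and 19019 (1.77-fold, log2 0.82 ± 0.10, adjusted p = 0.000637; joint fit 0.138).

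CD151, the tetraspanin partner of both integrins (chromosome 11, 832887 to 839831), read 6410, 5761 and 7071 in MCF10A control and 4702, 4581 and 5014 in METTL3-labelled libraries, without overlap (74.3% of control, log2 -0.42 ± 0.14, adjusted p = 0.154, with the block 0.0784). In MCF10AT1 it rose from 7506, 9843 and 5046 to 16336, 19994 and 14874 (2.29-fold, log2 1.23 ± 0.32, adjusted p = 0.0389). Values rose in MCF10CA1h from 8873, 7981 and 9183 to 10056, 12677 and 11683 (1.32-fold, log2 0.40 ± 0.11, adjusted p = 0.0338). Both calls lay near the threshold and were kept in only 1 of the 6 fits that left out a library, with adjusted p up to 0.189 in MCF10AT1 and 0.118 in MCF10CA1h.

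Of the plakins, DST was called in MCF10A and PLEC in MCF10CA1h. DST (chromosome 6, 56457987 to 56954830), which makes the hemidesmosomal BPAG1e and other isoforms that the gene-level value does not separate, read 8378, 12139 and 9965 in MCF10A control and 17638, 18850 and 21662 in METTL3-labelled libraries. It rose 1.91-fold, with no overlap (log2 0.94 ± 0.18, adjusted p = 0.0373, with the block 0.00986), but the call was lost when any METTL3-labelled library, or control replicate b or c, was left out, with adjusted p up to 0.148. In MCF10AT1 it read 3452, 2187 and 3543 against 2792, 3579 and 3643, and in MCF10CA1h 3475, 4234 and 2983 against 3931, 3421 and 4002. The groups overlapped in both, with log2 fold changes of 0.15 ± 0.29 (adjusted p = 0.778, and a negative sign with equal sums per library) and 0.10 ± 0.13 (adjusted p = 0.673).

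PLEC, plectin (chromosome 8, 143915153 to 143976734), read 21406, 31274 and 44289 in MCF10A control and 19379, 25174 and 20136 in METTL3-labelled libraries, with overlap (log2 -0.53 ± 0.27, adjusted p = 0.338). In MCF10AT1 it read 6547, 9921 and 14931 against 11451, 17925 and 20383, with overlap (log2 0.70 ± 0.38, adjusted p = 0.276). In MCF10CA1h it rose from 17557, 18246 and 13770 to 27567, 34254 and 26168, without overlap (1.77-fold, log2 0.83 ± 0.13, adjusted p = 0.00345; joint fit 0.271).

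**Figure D3:**
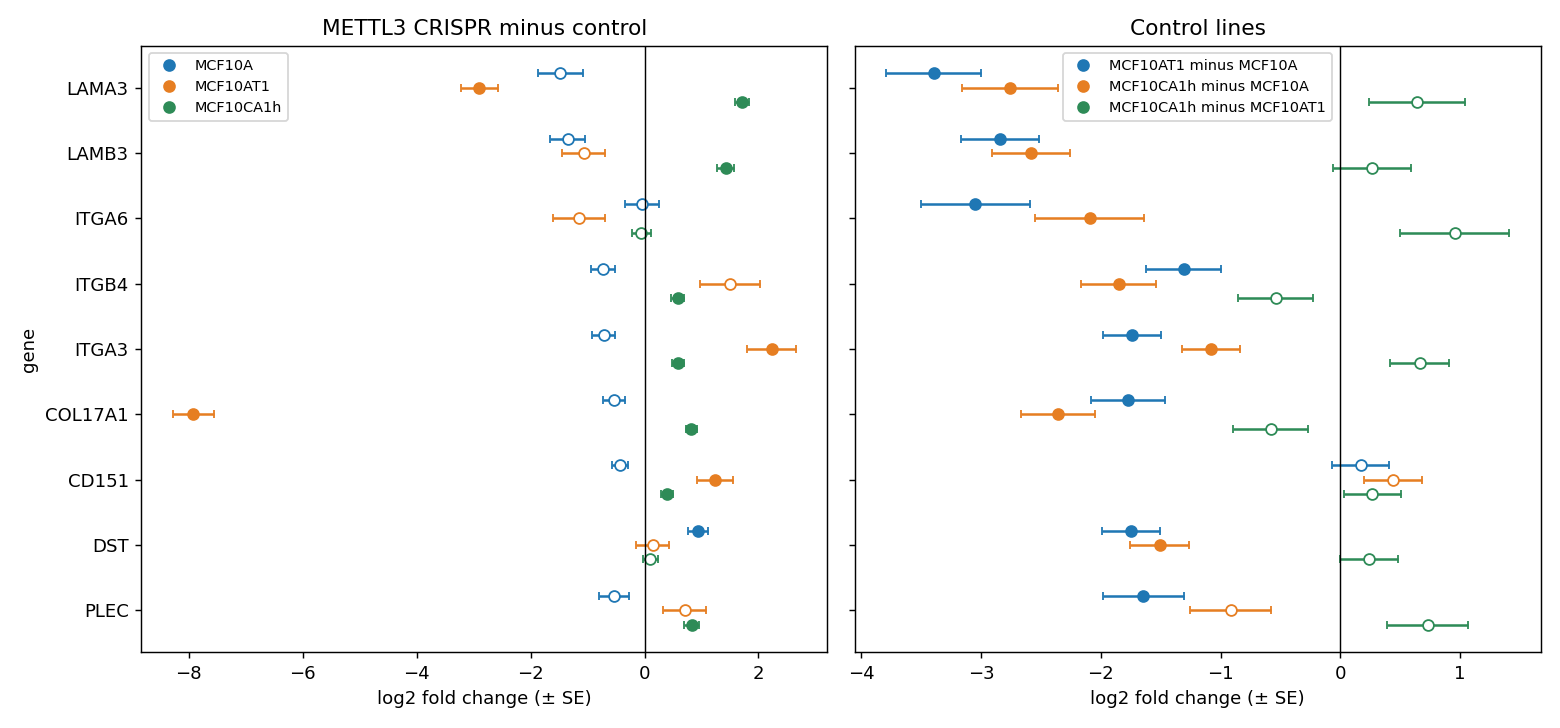
Log2 fold changes with SE from limma, on log2 of the normalized count plus 1, for METTL3-labelled minus control libraries in each line (left) and between control lines (right). Filled points have an adjusted p under 0.05 and open points do not. On the left, MCF10CA1h lies to the right of MCF10A for each gene except ITGA6 and DST.

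Whether the difference between METTL3-labelled and control libraries itself differed between lines was tested as an interaction in 1 fit of 18 libraries. Between MCF10AT1 and MCF10A it differed for 6 of the 9 (21.6% of all 15897 genes): the change was more positive in MCF10AT1 for ITGA3 (difference of log2 fold changes 2.95 ± 0.42, adjusted p = 8.1e-05), ITGB4 (2.22 ± 0.51, adjusted p = 0.00468), CD151 (1.66 ± 0.28) and PLEC (1.23 ± 0.43, adjusted p = 0.0488), and more negative for COL17A1 (-7.39 ± 0.35) and LAMA3 (-1.42 ± 0.48, adjusted p = 0.0426). Between MCF10CA1h and MCF10A it differed for 3 of the 9 (5.34% of all genes), all more positive in MCF10CA1h: LAMA3 (3.19 ± 0.48), LAMB3 (2.77 ± 0.46) and COL17A1 (1.35 ± 0.35, adjusted p = 0.0344). Between MCF10CA1h and MCF10AT1 it differed for 4 of the 9 (18.2% of all genes): COL17A1 (8.74 ± 0.35), LAMA3 (4.61 ± 0.48) and LAMB3 (2.49 ± 0.46) were more positive in MCF10CA1h, and ITGA3 (-1.64 ± 0.42, adjusted p = 0.0112) was more negative. These 3 contrasts share libraries and are not independent of each other. Of the 13 differences, 10 were called in each of the 12 fits that left out 1 library of the lines compared, while LAMA3 and PLEC between MCF10AT1 and MCF10A were called in 4 and 3 of 12 (highest adjusted p 0.113 and 0.131) and COL17A1 between MCF10CA1h and MCF10A in 1 of 12 (highest 0.106). Equal sums per library moved the median of all genes from -0.004 to -0.26 in the first contrast, where PLEC was then not called. For ITGA6 and DST no pair of lines differed at the threshold.

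The 9 control libraries were fitted apart from the others to describe the levels along the MCF10 series without the METTL3 guide. In MCF10AT1 control, 8 of the 9 genes were lower than in MCF10A control, all but CD151, beside 28.1% of all 15652 genes called, 14.7% lower and 13.3% higher. LAMA3 stood at 8.86% of its MCF10A level (log2 -3.40 ± 0.40, adjusted p = 0.000911), LAMB3 at 13.2%, ITGA6 at 13.4%, DST at 30.1%, ITGA3 at 30.2%, COL17A1 at 30.7%, PLEC at 32.4% and ITGB4 at 42.6%. ITGB4 was the least secure of these, since its call was lost without MCF10AT1 control replicate a or MCF10A control replicate c (highest adjusted p 0.0703). CD151 was at 116% with overlapping groups (adjusted p = 0.595), and its sign turned without MCF10AT1 control replicate b (log2 -0.055).

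In MCF10CA1h control, 7 of the 9 were lower than in MCF10A control, beside 37.8% of all genes called, 18.8% lower and 19.0% higher. LAMA3 was at 13.2% of the MCF10A level, LAMB3 at 15.7%, COL17A1 at 19.3% (log2 -2.36 ± 0.31, adjusted p = 0.000713), ITGA6 at 22.8%, ITGB4 at 27.6%, DST at 35.1% and ITGA3 at 46.7%. PLEC was at 51.1% and missed the threshold (adjusted p = 0.0572, and 0.0286 without MCF10A control replicate a), and CD151 was at 135% without overlap (adjusted p = 0.171). Both comparisons share the MCF10A control libraries, so they are not independent of each other.

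Between MCF10CA1h and MCF10AT1 controls none of the 9 was called by limma, beside 21.8% of all genes called, 11.0% higher and 10.8% lower. An unadjusted p under 0.05 was found for 1, ITGA3, beside 36.2% of all genes. The ITGA3 groups did not overlap (log2 0.66 ± 0.24, adjusted p = 0.0809), while those of the other members did. The share of all genes without overlap was not computed for this comparison. This comparison rested on MCF10AT1 control replicate c: without it, 4 were called, beside 35.8% of all genes, ITGA6 (1.46, adjusted p = 0.0116) and PLEC (1.02, 0.0274) higher and COL17A1 (-0.96, 0.00645) and ITGB4 (-0.83, 0.0367) lower in MCF10CA1h. Without MCF10AT1 control replicate b, ITGA3 was called (0.86, adjusted p = 0.024). Scaling the libraries to equal sums moved the median log2 fold change of all genes from -0.01 to -0.15 for MCF10AT1 against MCF10A control, from 0.05 to 0.16 for MCF10CA1h against MCF10AT1 control and from 0.02 to -0.15 for the METTL3-labelled libraries of MCF10AT1, shifts that leave the sign of each call above as it was.

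Over the 6 groups, LAMA3, LAMB3, COL17A1, ITGA6 and PLEC averaged highest in MCF10A control. For LAMA3, LAMB3 and COL17A1 that group did not overlap with the next in order, MCF10CA1h METTL3-labelled for the laminin chains (33776 and 44956) and MCF10A METTL3-labelled for COL17A1 (39971), while for ITGA6 and PLEC it did. ITGB4, ITGA3 and CD151 averaged highest in the MCF10AT1 METTL3-labelled libraries (102830, 56600 and 17068), where only CD151 stood clear of the next group. DST was highest in the MCF10A METTL3-labelled libraries (19383), then in MCF10A control (10161), and its other 4 groups, at 3061 to 3785, overlapped. LAMA3, LAMB3, ITGA6 and COL17A1 were lowest in MCF10AT1 METTL3-labelled libraries, each without overlap with the next group.

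The other genes of this adhesion zone were taken from a list of 35 in 4 roles. In MCF10A, 33 were tested and 2 called, both higher (8 with the block, 4 of them higher); in MCF10AT1, 32 were tested with 3 higher and 9 lower (18 with the block); and in MCF10CA1h, 33 were tested with 8 higher and 3 lower. Beside these counts stand the 2.65%, 13.0% and 12.8% of all genes called, and 7.60% and 24.5% with the block in the first 2 lines. Their median log2 fold changes were 0.04, -0.48 and 0.08.

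Among the other laminins and anchoring proteins, 5 of 7 were tested in each line, with 0, 2 and 0 called in MCF10A, MCF10AT1 and MCF10CA1h. The called gene of this role with the largest change in MCF10AT1 was FRAS1, a protein of the basement membrane, at 56.2 ± 44.7 (SD, n = 3) against 369 ± 182 (log2 -2.97 ± 0.69, adjusted p = 0.0263). The FRAS1 call was kept in 2 of the 6 fits without 1 library. Among the 8 receptors and partners, 0, 2 and 5 were called. SDC1, a proteoglycan that binds laminin, fell in MCF10AT1 (1068 ± 496 against 10979 ± 1033, log2 -3.48 ± 0.38, adjusted p = 0.000779) and rose in MCF10CA1h (14949 ± 650 against 10110 ± 499, log2 0.56 ± 0.08, adjusted p = 0.0023; joint fit 0.644).

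Among the 11 cytolinkers, keratins and plaque proteins, 2 were called in MCF10A, both higher, 6 in MCF10AT1, 5 of them lower, and 5 in MCF10CA1h, 3 of them higher. EPPK1, epiplakin, a keratin-binding plakin, rose in MCF10A (429 ± 32.6 against 122 ± 16.04, log2 1.81 ± 0.20, adjusted p = 0.00803) and fell in MCF10AT1 (3.80 ± 1.84 against 417 ± 148, log2 -6.46 ± 0.52, adjusted p = 0.000181). It was called in all 6 fits without 1 library in both lines. KRT14, a basal keratin, rose in MCF10CA1h (4623 ± 980 against 1037 ± 206, log2 2.15 ± 0.17, adjusted p = 7.02e-05), also in the joint fit (0.0225).

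Among the 9 genes that process or regulate the complex, 0, 2 and 1 were called. BMP1, a protease that cleaves laminin-332 chains, rose in MCF10AT1 (2623 ± 405 against 1173 ± 117, log2 1.15 ± 0.25, adjusted p = 0.0196), and MMP14, a membrane-bound protease, rose in MCF10CA1h (7100 ± 617 against 5323 ± 378, log2 0.41 ± 0.10, adjusted p = 0.0204; joint fit 0.350). These calls were kept in 2 and in 3 of the 6 fits without 1 library.

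**Figure D4:**
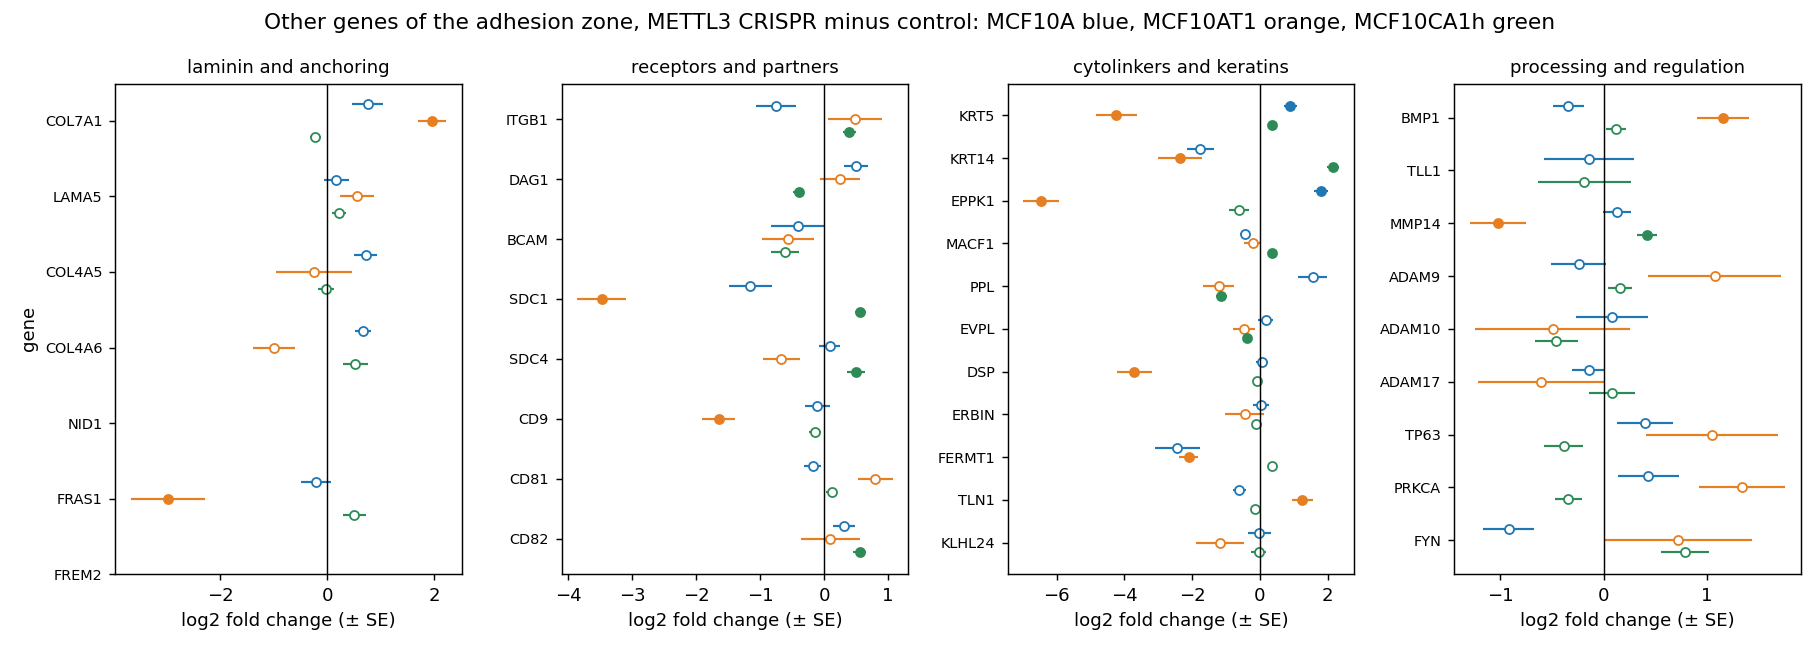
Log2 fold changes with SE for the other genes of the adhesion zone in 4 roles, METTL3-labelled minus control, in MCF10A (blue), MCF10AT1 (orange) and MCF10CA1h (green), each panel with its own horizontal axis. Filled points have an adjusted p under 0.05, and genes without a point were under the minimum mean of 10. EPPK1 lies at 1.81 in MCF10A and at -6.46 in MCF10AT1.

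The genes most like each member were ranked by Pearson's r of log2 values over the 18 libraries among 12448 genes with a mean of at least 50. Libraries of 1 group share a CRISPR line, so these values describe 6 groups more than 18 independent points, and they carry no p. LAMA3 and LAMB3 had an r of 0.950 with each other, and the gene nearest to LAMA3 was RNASE7 (0.965). The nearest gene to COL17A1 was LAD1 (0.988), which encodes an anchoring filament protein of basement membranes, followed by MIR205HG (0.987). COL17A1 was at 60.4 to 80.4 in the MCF10AT1 METTL3-labelled libraries and at 10015 or more in every other library. That 1 group therefore weighs most in its ranking. The integrin chains had other neighbours: TMC7 for ITGA6 (0.987), TPT1-AS1 for ITGB4 (0.908) and AOX1 for ITGA3 (0.946). ITGA6 and ITGB4, the chains of 1 receptor, had an r of -0.02, while ITGA3 and ITGB4 had 0.814. For CD151 the nearest was ACP2 (0.984), with the tetraspanin CD63 ranking next but one (0.978), for DST SH3BGRL (0.953) and for PLEC MAP4 (0.925). Over the 6 group means, the nearest genes were RABGEF1 for LAMA3 (0.999), DEPP1 for LAMB3 (0.996), FRAS1 for COL17A1 (0.998), ETV3 for ITGA6 (0.999), AOX1 for ITGA3 (0.990), YIF1A for CD151 (0.994), DTWD1 for DST (0.998) and TAF13 for PLEC (0.986).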

How the data were processed

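RNA of 18 libraries was analysed, 3 from each of 6 groups assigned by the genotype and cell line labels. Per the labels and methods, the authors pseudo-aligned reads with kallisto 0.46.1 (hg38), summed them to genes and normalized them with DESeq2 1.26.0 in R 4.1.1; the deposited normalized counts are a signal, neither reads nor per length. The methods name rRNA-depleted total RNA and the labels polyA RNA, a conflict not settled here. Low values lay at whole multiples of a common step in only 14.93% to 37.06% of cases (tolerance 0.02), so reads were not recovered, depth per gene is unknown and no counting interval is given. Of 35933 genes with values (24646 rows had none), 35894 had a symbol.

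Log2 of the normalized count plus 1 was tested with limma 3.58.1 (lmFit, eBayes with trend, two-sided) in R 4.3.3 for genes averaging 10 or more, adjusted by Benjamini-Hochberg over all of them at 0.05. Each line was fitted alone, the 9 control libraries in 1 fit, and interactions over all 18. A fold change on this scale understates that of low genes. The fit was tested on simulated data with a set spread, below that of groups such as LAMA3 in MCF10A control (77626 ± 46887, SD). That test therefore says little about calls in groups with such a spread. All 9 members passed the filter in every fit. Same-letter libraries of both arms deviated together in MCF10A (r = 0.221, 0.200 and 0.116 for a, b and c) and MCF10AT1 (0.110, 0.289 and 0.477) but not in MCF10CA1h (-0.011, 0.017 and 0.046). Between controls the signs were mixed. They were 0.284, -0.250 and 0.265 for MCF10AT1 and MCF10A, and 0.108, 0.161 and -0.144 for MCF10CA1h and MCF10A. For MCF10CA1h and MCF10AT1 they were 0.053, -0.236 and -0.268. The letter as a block is given beside results for MCF10A and MCF10AT1 where it changes a call. Neither labels nor methods say what a letter shares. Alternatives were pseudocounts of 0.5 and 5, no filter, a mean of at least 50, no trend, equal sums, the block, a joint fit and each library left out. Ratios and correlations used pandas 2.3.3 and NumPy 2.4.6, and permutation tests SciPy 1.17.1, under Python 3.11.15. Named are all members, METTL3 and, per role and line, the called gene of the adhesion list with the largest change; markers named beside these were chosen after their values were seen. A few genes are not reported here and were left out of the adhesion list and the ranking of correlations. The members and lists were chosen with earlier results of these data known.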

Additional observations from a re-analysis of the deposited data

Results flagged for a closer look

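The results below are differences of the METTL3-labelled change between lines that passed the interaction test, as differences of log2 fold changes. From MCF10A to MCF10AT1 they were -1.42 for LAMA3, 2.22 for ITGB4, 2.95 for ITGA3, -7.39 for COL17A1, 1.66 for CD151 and 1.23 for PLEC. From MCF10A to MCF10CA1h they were 3.19 for LAMA3, 2.77 for LAMB3 and 1.35 for COL17A1. From MCF10AT1 to MCF10CA1h they were 4.61 for LAMA3, 2.49 for LAMB3, -1.64 for ITGA3 and 8.74 for COL17A1. Each line is represented by 1 control and 1 METTL3-labelled CRISPR line, and what part of these differences belongs to the guide was not tested.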

How the results depend on the processing

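The number of the 9 members called moved by over 1.5 times under some settings. In MCF10A it was 1, and 0 without a filter on low values or without the intensity trend, 3 in the joint fit and 5 with the replicate block. Over all genes the calls were, in that order, 409 of 15416, 117 of 35933, 237 of 15416, 610 of 15897 and 1172 of 15416. In MCF10AT1 it was 4, and 2 without a filter and 7 in the joint fit and with the block. The calls over all genes there were 2091 of 16050, 1399 of 35933, 5146 of 15897 and 3939 of 16050. In MCF10CA1h it was 7, and 2 without a filter and in the joint fit and 4 without the trend. The calls over all genes there were 1929 of 15127, 606 of 35933, 248 of 15897 and 1123 of 15127. With equal sums, 1 member (ITGA3) was called between the MCF10CA1h and MCF10AT1 controls, beside 3293 of all 15733 genes. With the block, the interaction of MCF10CA1h against MCF10A called 5 members in place of 3, with ITGA3 (adjusted p = 0.0411) and PLEC (0.0433) added. Over all 15897 genes it called 909 in place of 849. What a letter shares between lines is not given. Within MCF10CA1h the block took CD151 to an adjusted p of 0.0535 and changed no other member's call. Between controls and in the other interactions it changed no member's call. The cause of these shifts was not tested.

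Over all genes, the calls in MCF10A were 409, against 117 without a filter, 237 without the trend and 1172 with the block. In MCF10AT1 they were 2091, against 3939 with the block and 5146 in the joint fit, and in MCF10CA1h 1929, against 606, 1123 and 248 without a filter, without the trend and in the joint fit. Between the MCF10AT1 and MCF10A controls they were 4391, and 2698 without a filter. Leaving out 1 library gave 52 to 1418, 1020 to 2439 and 1089 to 1785 in the 3 lines, and 1661 to 8142 and 1608 to 5593 for the MCF10AT1 controls against MCF10A and MCF10CA1h, the highest without MCF10AT1 control replicate c. Among the 35 adhesion genes, 2, 12 and 11 were called, and 1, 6 and 3 without a filter; the MCF10A count was 8 with the block and 1 with a pseudocount of 5, and the MCF10CA1h count 4 without the trend and 1 in the joint fit.

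METTL3 in MCF10CA1h kept its value of -0.49 and missed the threshold without a filter (adjusted p = 0.119), without the trend (0.0742) and in the joint fit (0.501). Equal sums turned 3 values that were not called: ITGA6 in MCF10A (0.045), DST in MCF10AT1 (-0.015), and the interaction of DST for MCF10CA1h against MCF10AT1 (0.055).

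With 1 library left out in turn, 0 to 4 members were called in MCF10A, 2 to 5 in MCF10AT1 and 0 to 4 between the MCF10CA1h and MCF10AT1 controls. Beside these stand 52 to 1418, 1020 to 2439 and 1608 to 5593 calls over all genes. Log2 fold changes ranged from -0.37 to 0.13 for ITGA6 in MCF10A, -0.078 to 0.27 for DST in MCF10AT1, and in MCF10CA1h from -0.26 to 0.084 for ITGA6, -0.023 to 0.23 for DST and -0.56 to -0.40 for METTL3. CD151 ranged from -0.055 to 0.43 between the MCF10AT1 and MCF10A controls. Interactions ranged from -0.10 to 0.66 (LAMB3) for MCF10AT1 against MCF10A, -0.21 to 0.32 (ITGA6) for MCF10CA1h against MCF10A, and -0.17 to 0.18 (DST) and -0.17 to 0.42 (PLEC) for MCF10CA1h against MCF10AT1. Pseudocounts of 0.5 and 5 and a mean of at least 50 left the number of members called within 1.5 times in all 9 comparisons. Depth per gene is unknown, so counting error cannot be set beside the spread between libraries.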
